A study of Homo sapiens with 9 samples.

Results

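The 55 genes described here encode collagens, laminins, integrins and other proteins of the extracellular matrix, with the enzymes that build and cut it. They were chosen by symbol from a list of matrix genes and matched through the Ensembl identifiers of GENCODE 29, and all 55 were found among the 58735 genes of the count table. They fall into 8 protein classes: 17 collagens, 6 laminins, 4 other basement membrane proteins, 6 matrix glycoproteins, 6 proteases or protease inhibitors, 5 collagen processing proteins, 7 integrin alpha chains and 4 integrin beta chains. RNA was sequenced from HEK293T, a line of human embryonic kidney cells that make SV40 large T antigen. Cells received a Silencer Select siRNA against PHF12 (s33518), one against SUDS3 (s34740) or Silencer Select Negative Control No. 2, each at 10 nM for 36 h with Lipofectamine RNAiMAX, and each group has 3 libraries. Both targets belong to the SIN3 corepressor, which recruits histone deacetylases. Each target was hit by 1 siRNA, so effects of losing the protein and effects of that siRNA on other transcripts cannot be told apart.

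Cells sit on and within a matrix that they secrete. Collagens fold as triple helices in the endoplasmic reticulum, where prolyl and lysyl hydroxylases modify them and the chaperone SERPINH1 binds them, and lysyl oxidases cross-link them outside the cell. Basement membranes are sheets of laminin trimers and type IV collagen, joined by nidogens and the proteoglycans perlecan and agrin. Integrins, pairs of an alpha and a beta chain, anchor cells to laminin, collagen or fibronectin, and metalloproteinases cut the matrix under the control of the TIMP inhibitors.

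Library totals lay between 37962926 and 50946148 counts. Most counts are multiples of 4, and divided by 4 the totals lay between 9490731.5 and 12736537. Each siRNA lowered its own target: PHF12 stood at 26.9 ± 2.08 CPM in PHF12 knockdown libraries and 49.9 ± 0.938 CPM in control libraries, and SUDS3 at 22.1 ± 0.937 CPM in SUDS3 knockdown libraries and 111.1 ± 3.31 CPM in control libraries (SD, n = 3 each). The siRNAs also moved the other target. SUDS3 was lower in PHF12 knockdown libraries, at 81.0 ± 0.784 CPM (log2 fold change -0.46, SE of 0.05, edgeR adjusted p = 6.83e-10), and PHF12 was higher in SUDS3 knockdown libraries, at 61.5 ± 1.73 CPM (log2 fold change 0.30, SE of 0.06, edgeR adjusted p = 7.19e-05), each with no overlap with the controls. CPM here is the count scaled by TMM to 1000000 per library. Of 10 markers of kidney epithelium and its progenitors, 7 passed the low-count filter, among them SIX2 and EYA1, while CDH16 and UMOD, which mark mature tubules, were at 0 in every library and PAX8 was near 0. The list summed to 127 to 136 CPM in PHF12 knockdown libraries, which did not overlap the controls, 111 to 122 CPM in SUDS3 knockdown libraries and 115 to 121 CPM in control libraries. EYA1 averaged 34.4 CPM in PHF12 knockdown libraries, 16.6 CPM in SUDS3 knockdown libraries and 22.5 CPM in control libraries, and WT1 averaged 4.90 CPM in PHF12 knockdown libraries, 4.52 CPM in SUDS3 knockdown libraries and 8.18 CPM in control libraries. Of 10 fibroblast markers 5 passed the filter. All 10 summed to 20.3 to 22.1 CPM in PHF12 knockdown libraries, 17.9 to 20.3 CPM in SUDS3 knockdown libraries and 22.0 to 25.1 CPM in control libraries, with FAP and THY1 at 0 throughout. Of 5 smooth muscle markers 4 passed, and of 6 endothelial markers 1 passed. All 5 smooth muscle markers summed to 13.4 to 14.0 CPM in PHF12 knockdown libraries, 10.6 to 14.3 CPM in SUDS3 knockdown libraries and 8.65 to 11.6 CPM in control libraries. The part of these marker levels in the results was not tested. In bulk RNA, fewer cells of a type and less RNA per cell cannot be told apart. The labels do not say that replicates were separate cultures, so a p reflects only how these libraries vary, which may be technical. Of the 55 genes, 15 overlap another tested gene that lies on the opposite strand and 2 overlap one on the same strand. They include COL4A1, COL4A2, COL9A3, LAMB1, FBN2, TIMP1, LOX, LOXL2 and ITGA6, so reads of neighbouring genes can be among their counts. Single libraries are named below by group and replicate number.

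Of the 55 genes, 52 passed the low-count filter and were tested. The other 3 were COL1A2, a chain of type I collagen, COL11A1, a chain of type XI collagen, and THBS1, the adhesive glycoprotein thrombospondin. COL1A2 reached at most 8 counts in a library, COL11A1 at most 4 and THBS1 at most 8. HEK293T cells thus held transcript of COL1A1 with almost none of its usual partner chain COL1A2. Levels are compared between genes per length, as TPM recomputed from the counts and the exon length in GENCODE 29. On that scale 47 of the 55 genes averaged at least 1 TPM over the 9 libraries and 26 averaged at least 10 TPM.

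TIMP1, an inhibitor of metalloproteinases, had the highest level per length averaged over the 9 libraries, with 163 ± 7.50 TPM in PHF12 knockdown libraries, 102 ± 3.17 TPM in SUDS3 knockdown libraries and 148 ± 12.2 TPM in control libraries (SD, n = 3 each). LAMC1, the gamma chain shared by most laminins, followed with 106 ± 1.52 TPM in PHF12 knockdown libraries, 117 ± 0.497 TPM in SUDS3 knockdown libraries and 104 ± 1.32 TPM in control libraries. The order differed between groups: LAMC1 was above TIMP1 in SUDS3 knockdown libraries, and in control libraries NID1, at 111 TPM, was above LAMC1. The basement membrane linker NID1 averaged 95.0 TPM over the 9 libraries and P4HA1, a catalytic subunit of prolyl hydroxylase, 94.3 TPM. By exon length P4HA1 was the highest of the collagen processing class, but with the longest coding transcript as length SERPINH1 was. Among matrix glycoproteins FBN2 led by exon length at 23.3 TPM over the 9 libraries, but FBLN1 led in PHF12 knockdown libraries, and with the longest coding transcript as length FBLN1 averaged 34.1 TPM and FBN2 18.3 TPM. COL6A1 led the collagens at 65.4 TPM and ITGB1 the integrin beta chains at 54.6 TPM by exon length, and both also led in each group and by coding transcript length. ITGA5 led the integrin alpha chains at 20.0 TPM by exon length over the 9 libraries, and also by coding transcript length, but by exon length ITGA6 led in SUDS3 knockdown libraries and ITGAV in control libraries. At the low end, MMP14, COL12A1, ITGB3, ITGB8 and COL6A3 averaged under 1 TPM.

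**Figure D1:**
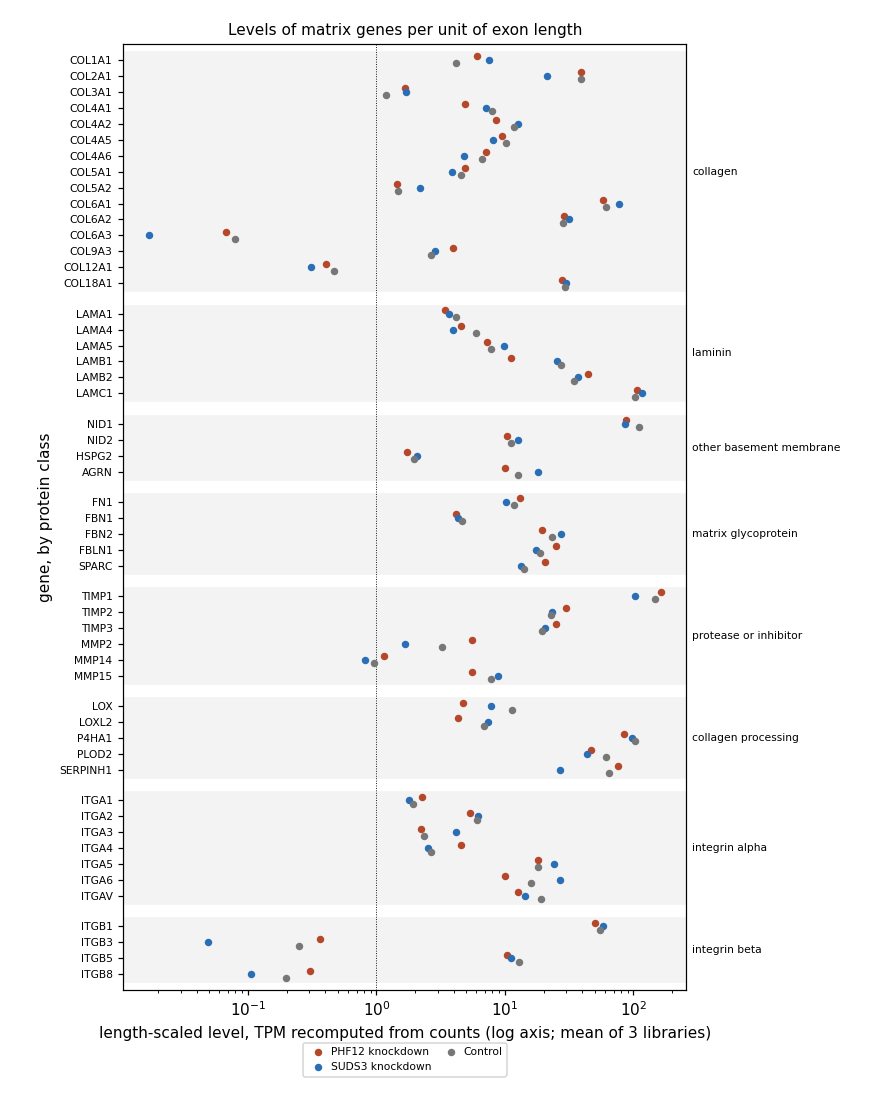
Levels of the 52 tested genes per unit of exon length, as TPM recomputed from counts, on a log axis. Each point is the mean of 3 libraries, in orange for PHF12 knockdown, blue for SUDS3 knockdown and grey for control, and the dotted line marks 1 TPM. TIMP1 and LAMC1 lie at the right end, and COL6A3 and ITGB3 at the left end with the SUDS3 knockdown lowest.

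The first question is which of these transcripts moved with each siRNA. With the PHF12 siRNA, 12 of the 52 tested genes rose, 16 fell and 24 did not pass (edgeR adjusted p under 0.05). That is 53.8% of them, against 31.9% of all 18088 genes tested, of which 14.8% rose and 17.1% fell. With the SUDS3 siRNA, 10 rose, 19 fell and 23 did not pass, or 55.8%, against 38.7% of all genes, of which 19.6% rose and 19.2% fell. More of these genes are well expressed than of all genes. Among genes with an average log2 CPM of at least 1, 59.6% of 47 were called with the PHF12 siRNA against 43.6% of 12728, and 57.4% against 52.1% with the SUDS3 siRNA. The median log2 fold change of the 52 was -0.05 with the PHF12 siRNA, against -0.00 over all genes, and -0.12 with the SUDS3 siRNA, against -0.02 over all genes.

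Separation of the libraries gave like counts. All 3 PHF12 knockdown libraries lay above all 3 control libraries in 13 genes and below them in 17, where 20.2% and 21.9% of all genes did so. For the SUDS3 siRNA these numbers were 11 and 19, against 23.2% and 23.4% of all genes. Changes of at least 2-fold were few. LAMB1 and LOX passed that mark with the PHF12 siRNA, both lower, where 1.33% of all genes were called lower by at least 2-fold. SERPINH1, MMP2, COL6A3 and ITGB3 passed it with the SUDS3 siRNA, all lower, and the last 2 of these rest on very few counts. For SUDS3, 2.1% of all genes were called lower by at least 2-fold. With upper-quartile scaling in place of TMM the split among the 52 was 14 higher and 15 lower with the PHF12 siRNA, and over all genes the share of calls that were higher was 56.9% in place of 46.4%. Without Control replicate 1, falls with the SUDS3 siRNA numbered 12 in place of 19. Both knockdowns are set against the same 3 control libraries.

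**Figure D2:**
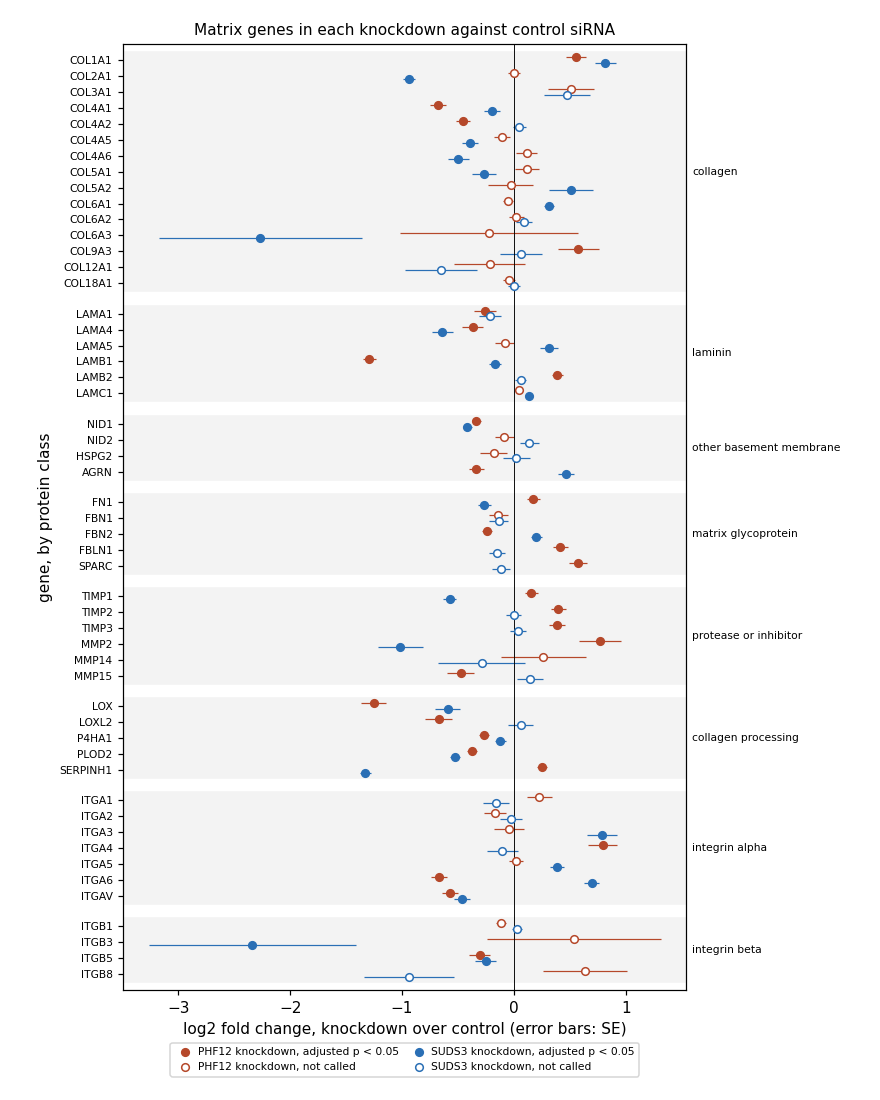
Log2 fold change of each of the 52 tested genes against control, with PHF12 knockdown in orange and SUDS3 knockdown in blue, grouped by protein class. Bars are standard errors from edgeR, filled points have an adjusted p under 0.05 and open points do not. LAMB1 and LOX reach -1.29 and -1.25 in orange, and SERPINH1 reaches -1.33 in blue.

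Among the collagens, the type IV pair COL4A1 and COL4A2 fell with the PHF12 siRNA, the cartilage collagen COL2A1 fell with the SUDS3 siRNA, and COL1A1 rose with each. Of 15 collagens tested, 2 rose, 2 fell and 11 did not pass with the PHF12 siRNA, and 3 rose, 6 fell and 6 did not pass with the SUDS3 siRNA. For PHF12 26.7% of the collagens were called, against 31.9% of all genes, and for SUDS3 60.0%, against 38.7% of all genes. The summed collagen level per length was 202 ± 6.90 TPM in PHF12 knockdown libraries, 211 ± 5.21 TPM in SUDS3 knockdown libraries and 209 ± 8.61 TPM in control libraries (SD, n = 3 each). The libraries of the 3 groups overlapped in this sum.

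COL4A1 and COL4A2 encode the chains of the main type IV collagen network and lie head to head on chromosome 13, on opposite strands (GENCODE spans 110148963 to 110307233 and 110305812 to 110513209, GRCh38). Their RefSeq starts are 127 bases apart, and the start of COL4A1 lies inside the promoter window of COL4A2, which is shown because both genes fell with the PHF12 siRNA. The window runs 250 bases before to 50 after the start of COL4A2 (chr13:110307034-110307333, plus strand, RefSeq, GRCh38.p14), with its 1 CCAAT and its 1 GC box, GGGCGG, in capitals.
COL4A2 promoter: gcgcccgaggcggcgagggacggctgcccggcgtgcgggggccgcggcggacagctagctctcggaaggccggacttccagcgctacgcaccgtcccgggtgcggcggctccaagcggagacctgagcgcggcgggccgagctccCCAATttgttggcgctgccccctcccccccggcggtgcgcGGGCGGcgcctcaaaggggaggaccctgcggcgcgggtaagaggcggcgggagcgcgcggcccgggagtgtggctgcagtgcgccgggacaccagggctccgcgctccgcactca
Both motifs were searched on both strands. A GC box is in 45.0% and a CCAAT in 34.6% of the 35116 promoter windows of this length, and in 30 and 16 of the 41 of these genes that have a window.

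COL4A1 stood at 20.1, 20.6 and 22.7 CPM in PHF12 knockdown libraries, 29.9, 29.3 and 29.6 CPM in SUDS3 knockdown libraries and 35.4, 32.2 and 33.9 CPM in control libraries. Its PHF12 knockdown libraries lay below all control libraries (log2 fold change -0.68, SE of 0.07, adjusted p = 1.28e-09), and its SUDS3 knockdown libraries lay below them by less (log2 fold change -0.19 with adjusted p = 0.0302). That smaller fall did not pass without Control 1 or 3 or SUDS3 knockdown 1, 2 or 3 (adjusted p = 0.055 to 0.135), nor with no low-count filter (adjusted p = 0.0517). COL4A2 gave 52.7, 47.2 and 44.9 CPM in PHF12 knockdown libraries, 68.7, 69.2 and 67.2 CPM in SUDS3 knockdown libraries and 71.5, 61.0 and 66.1 CPM in control libraries. It fell with the PHF12 siRNA (log2 fold change -0.45, SE of 0.06, adjusted p = 9.43e-08) and did not pass with the SUDS3 siRNA (log2 fold change 0.05 with adjusted p = 0.581), where the libraries overlap the controls. Both genes were higher in SUDS3 than in PHF12 knockdown libraries (log2 fold change 0.49 for COL4A1 and 0.50 for COL4A2, adjusted p = 6.35e-07 and 5.52e-09). The 2 genes overlap each other in the annotation, and no source used here gives the strand setting of the counting, so some counts of one may come from the other.

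Another head-to-head type IV pair, COL4A5 and COL4A6 on chromosome X, has RefSeq starts 380 bases apart. Both fell with the SUDS3 siRNA (log2 fold change -0.39 and -0.50, adjusted p = 3.27e-05 and 6.79e-05). With the PHF12 siRNA they did not pass, at -0.11 and 0.12. Each was lower in SUDS3 than in PHF12 knockdown libraries (-0.29 and -0.61, adjusted p = 0.00117 and 1.47e-06).

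COL2A1, the chain of cartilage type II collagen (ENSG00000139219, chromosome 12, 47972965 to 48004554), held 39.3, 40.5 and 38.3 CPM in SUDS3 knockdown libraries, against 80.9, 75.1 and 70.5 CPM in control libraries. It fell with the SUDS3 siRNA (log2 fold change -0.94, SE of 0.05, adjusted p = 2.35e-16). PHF12 knockdown libraries, at 77.9, 75.7 and 73.5 CPM, overlapped the controls (log2 fold change 0.00 with adjusted p = 0.976). Its share of all 17 collagens per length was 9.97 ± 0.176% in SUDS3 knockdown libraries, 19.3 ± 0.414% in PHF12 knockdown libraries and 18.8 ± 0.249% in control libraries. COL1A1, a chain of type I collagen (ENSG00000108821, chromosome 17, 50183289 to 50201632), held 18.1, 17.6 and 15.9 CPM in PHF12 knockdown libraries, 22.4, 19.7 and 20.0 CPM in SUDS3 knockdown libraries and 11.9, 12.1 and 11.2 CPM in control libraries. Every library of either knockdown lay above the controls. The rise with the PHF12 siRNA passed (log2 fold change 0.55, SE of 0.09, adjusted p = 9.46e-06). COL1A1 also rose with the SUDS3 siRNA (log2 fold change 0.82, SE of 0.09, adjusted p = 5.17e-09). The SUDS3 libraries were also higher than the PHF12 libraries (log2 fold change 0.26 with adjusted p = 0.0157), a difference that did not pass without PHF12 knockdown 3 or SUDS3 knockdown 1 (adjusted p = 0.0953 to 0.123) or with upper-quartile scaling (adjusted p = 0.0765).

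COL9A3, a chain of type IX collagen, gave 5.57, 5.06 and 5.95 CPM in PHF12 knockdown libraries, 3.58, 3.25 and 4.81 CPM in SUDS3 knockdown libraries and 4.39, 3.63 and 3.06 CPM in control libraries. The rise with the PHF12 siRNA passed (log2 fold change 0.58, SE of 0.18, adjusted p = 0.0125), but it did not pass without Control 3 or PHF12 knockdown 3 (adjusted p = 0.0579 to 0.0782). COL5A2, a chain of type V collagen that helps start fibrils, gave 2.91, 2.77 and 3.70 CPM in PHF12 knockdown libraries, 4.68, 4.59 and 4.32 CPM in SUDS3 knockdown libraries and 3.38, 3.81 and 2.32 CPM in control libraries. The rise with the SUDS3 siRNA passed (log2 fold change 0.51, SE of 0.20, adjusted p = 0.0386), but this did not pass without Control 1 or 3 or SUDS3 knockdown 1, 2 or 3 (adjusted p = 0.0542 to 0.236) or with upper-quartile scaling (adjusted p = 0.0523). COL6A1, which makes beaded filaments and had the highest collagen level per length, held 117, 119 and 114 CPM in SUDS3 knockdown libraries, 94.0, 88.8 and 88.3 CPM in PHF12 knockdown libraries and 100.1, 91.2 and 90.1 CPM in control libraries. It rose with the SUDS3 siRNA (log2 fold change 0.31, SE of 0.05, adjusted p = 6.97e-07), and its neighbour COL6A2 did not pass with either siRNA. COL6A3, the other chain of that filament, had only 0, 4 and 8 counts in SUDS3 knockdown libraries, 8, 36 and 12 in PHF12 knockdown libraries and 24, 32 and 4 in control libraries. Its SUDS3 call (adjusted p = 0.0463) did not pass without Control 1 or 2, PHF12 knockdown 1, 2 or 3 or SUDS3 knockdown 1 or 2 (adjusted p = 0.0549 to 0.226) or with a replicate block (adjusted p = 0.0743). COL5A1 fell with the SUDS3 siRNA (log2 fold change -0.27 with adjusted p = 0.0419), which did not pass without Control 1 or 2 or SUDS3 knockdown 1, 2 or 3 (adjusted p = 0.0557 to 0.19). COL3A1 did not pass with either siRNA (log2 fold change 0.51 for PHF12 knockdown and 0.47 for SUDS3 knockdown), and neither did COL12A1 or COL18A1, the source of endostatin.

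Laminins showed the largest fall of the set with the PHF12 siRNA, in the beta chain gene LAMB1. Summed over the class, the level per length was 177 ± 0.357 TPM in PHF12 knockdown libraries, 197 ± 3.38 TPM in SUDS3 knockdown libraries and 183 ± 2.51 TPM in control libraries (SD, n = 3 each), and the 3 groups did not overlap. Of 6 laminins tested, 1 rose, 3 fell and 2 did not pass with the PHF12 siRNA, and 2 rose, 2 fell and 2 did not pass with the SUDS3 siRNA. Over all genes, 31.9% were called for PHF12 and 38.7% for SUDS3. LAMB1 (ENSG00000091136, chromosome 7, 107923799 to 108003255) stood at 26.5, 26.6 and 26.3 CPM in PHF12 knockdown libraries, 56.5, 58.1 and 58.4 CPM in SUDS3 knockdown libraries and 67.0, 65.1 and 62.3 CPM in control libraries. The PHF12 knockdown libraries lay far below both other groups (log2 fold change -1.29, SE of 0.06, adjusted p = 3.40e-20). The SUDS3 knockdown libraries lay just below the controls (log2 fold change -0.17, SE of 0.05, adjusted p = 0.0107), a fall that did not pass without Control 1 (adjusted p = 0.0624). The other beta chain, LAMB2, held 92.1, 88.4 and 87.0 CPM in PHF12 knockdown libraries, 70.7, 73.7 and 68.6 CPM in SUDS3 knockdown libraries and 71.3, 66.5 and 66.5 CPM in control libraries. PHF12 knockdown libraries lay above all others (log2 fold change 0.39, SE of 0.05, adjusted p = 3.78e-08).

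Per length, LAMB1 therefore made up 20.0 ± 0.419% of the summed LAMB1 and LAMB2 level in PHF12 knockdown libraries, 40.6 ± 0.982% in SUDS3 knockdown libraries and 44.5 ± 0.613% in control libraries (SD, n = 3 each). LAMA4, an alpha chain of vessel and muscle laminins, held 13.9, 17.0 and 15.6 CPM in PHF12 knockdown libraries, 13.1, 13.3 and 12.1 CPM in SUDS3 knockdown libraries and 19.6, 20.4 and 20.1 CPM in control libraries. No library of either knockdown reached the controls. The gene fell with the PHF12 siRNA (log2 fold change -0.37, SE of 0.09, adjusted p = 0.00173) and also with that against SUDS3 (log2 fold change -0.64, SE of 0.09, adjusted p = 7.63e-07). LAMA5, the broadly expressed alpha chain, rose with the SUDS3 siRNA (log2 fold change 0.32 with adjusted p = 0.00188). It made up 56.5 ± 0.877% of the 3 alpha chains per length there, 47.3 ± 4.30% in PHF12 knockdown libraries and 43.2 ± 2.25% in control libraries. LAMA1, the alpha chain of early embryonic basement membrane, fell with the PHF12 siRNA (log2 fold change -0.26 with adjusted p = 0.0356), which did not pass without Control 2 or 3 or PHF12 knockdown 2 or 3 (adjusted p = 0.0735 to 0.143) or with upper-quartile scaling (adjusted p = 0.0774). LAMC1 gave 257, 264 and 259 CPM in PHF12 knockdown libraries, 276, 276 and 276 CPM in SUDS3 knockdown libraries and 259, 251 and 246 CPM in control libraries. That was a rise of 0.13 on the log2 scale with the SUDS3 siRNA (SE 0.03, adjusted p = 0.000856). With the PHF12 siRNA it did not pass (log2 fold change 0.05 with adjusted p = 0.298).

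**Figure D3:**
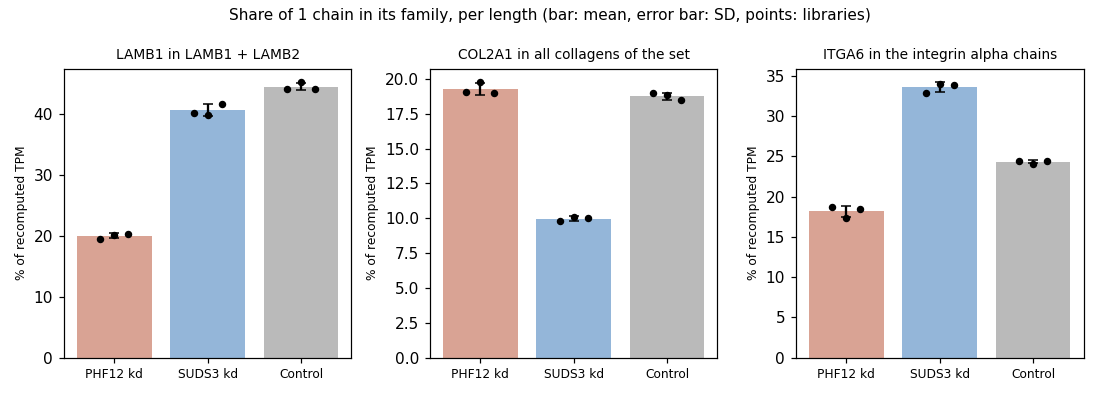
Share of 1 chain in its family per length, as percent of the recomputed TPM. Bars are the mean of 3 libraries, error bars the SD and points the libraries, with PHF12 and SUDS3 knockdown (kd) left of control. LAMB1 is lowest with the PHF12 siRNA, COL2A1 is lowest with the SUDS3 siRNA, and ITGA6 is lowest with the PHF12 siRNA and highest with the SUDS3 siRNA.

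Of the other basement membrane genes, NID1, which links laminin to type IV collagen (ENSG00000116962, chromosome 1, 235975830 to 236065162), fell with each siRNA. Of the 4 tested, 2 were called with each siRNA, where 31.9% of all genes were called for PHF12 and 38.7% for SUDS3. NID1 held 149, 150.2 and 149.7 CPM in PHF12 knockdown libraries, 144, 144 and 136 CPM in SUDS3 knockdown libraries and 193, 191 and 182 CPM in control libraries. Neither knockdown overlapped the controls. The PHF12 siRNA gave -0.33 on the log2 scale (SE 0.04, adjusted p = 3.29e-09) and the SUDS3 siRNA -0.42 (SE 0.04, adjusted p = 2.39e-11). The difference between the knockdowns did not pass (log2 fold change -0.08 with adjusted p = 0.079). AGRN, the proteoglycan agrin, held 54.1, 59.9 and 49.7 CPM in SUDS3 knockdown libraries, 28.8, 30.0 and 35.4 CPM in PHF12 knockdown libraries and 39.8, 38.9 and 39.9 CPM in control libraries. It rose with the SUDS3 siRNA (log2 fold change 0.47, SE of 0.07, adjusted p = 1.16e-06) and fell with the PHF12 siRNA (log2 fold change -0.33, SE of 0.07, adjusted p = 0.000289). NID2 and HSPG2, which encodes perlecan, did not pass with either siRNA, at -0.08 and -0.18 with the PHF12 siRNA and 0.14 and 0.02 with the SUDS3 siRNA on the log2 scale.

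Of 5 matrix glycoproteins tested, FBLN1, SPARC and FN1 rose with the PHF12 siRNA, FBN2 fell and FBN1 did not pass, where 14.8% of all genes rose and 17.1% fell. The FN1 rise was small, with libraries that overlapped the controls. With the SUDS3 siRNA FBN2 rose, FN1 fell and the other 3 did not pass. For SUDS3 19.6% of all genes rose and 19.2% fell. SPARC, a collagen-binding matricellular protein (ENSG00000113140, chromosome 5, 151661096 to 151687165), held 31.2, 27.7 and 28.4 CPM in PHF12 knockdown libraries, 19.1, 17.0 and 17.9 CPM in SUDS3 knockdown libraries and 18.9, 19.8 and 19.8 CPM in control libraries. Its PHF12 knockdown libraries lay above all others (log2 fold change 0.58, SE of 0.08, adjusted p = 3.19e-07), and its SUDS3 knockdown libraries overlapped the controls (log2 fold change -0.12 with adjusted p = 0.286). FBLN1, the elastic fibre protein fibulin, rose with the PHF12 siRNA (log2 fold change 0.42 with adjusted p = 1.28e-05). FN1, the integrin ligand fibronectin, rose with the PHF12 siRNA (log2 fold change 0.17 with adjusted p = 0.0191) and fell with the SUDS3 siRNA (log2 fold change -0.26 with adjusted p = 0.000378). The rise did not pass without Control 2 or 3 or PHF12 knockdown 1 or 3 (adjusted p = 0.0695 to 0.158). FBN2, a fibrillin of microfibrils and the leading glycoprotein by exon length over the 9 libraries but not by coding transcript length, gave 75.9, 78.8 and 69.0 CPM in PHF12 knockdown libraries, 100.1, 103 and 101 CPM in SUDS3 knockdown libraries and 89.9, 87.2 and 87.2 CPM in control libraries. It fell with the PHF12 siRNA (log2 fold change -0.24, SE of 0.05, adjusted p = 0.000114) and rose with the SUDS3 siRNA (log2 fold change 0.20, SE of 0.05, adjusted p = 0.000699), with no overlap with the controls in either.

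The inhibitors TIMP1, TIMP2 and TIMP3 passed as higher with the PHF12 siRNA, TIMP1 only narrowly, and MMP2 moved in opposite directions with the 2 siRNAs. Of 6 proteases and inhibitors, 4 rose, 1 fell and 1 did not pass with the PHF12 siRNA. With the SUDS3 siRNA edgeR called 2 lower and left 4 uncalled, with 0 higher also at an unadjusted p under 0.05 and in DESeq2. The shares of all genes called were 31.9% for PHF12 and 38.7% for SUDS3. MMP2, a gelatinase that cuts type IV collagen (ENSG00000087245, chromosome 16, 55389700 to 55506691), held 8.23, 7.35 and 8.24 CPM in PHF12 knockdown libraries, 2.57, 2.75 and 1.57 CPM in SUDS3 knockdown libraries and 5.67, 5.10 and 3.17 CPM in control libraries. The 3 groups did not overlap. It rose with the PHF12 siRNA (log2 fold change 0.77, SE of 0.19, adjusted p = 0.00131) and fell with the SUDS3 siRNA (log2 fold change -1.01, SE of 0.20, adjusted p = 9.22e-05). TIMP1, the inhibitor with the highest level per length (ENSG00000102265, chromosome X, 47582313 to 47586789), held 75.4, 75.4 and 69.2 CPM in PHF12 knockdown libraries, 46.0, 43.1 and 43.4 CPM in SUDS3 knockdown libraries and 72.4, 60.3 and 64.6 CPM in control libraries. It fell with the SUDS3 siRNA (log2 fold change -0.57, SE of 0.06, adjusted p = 6.17e-10), with all 3 libraries below the controls. Its rise with the PHF12 siRNA (log2 fold change 0.16 with adjusted p = 0.0336) did not pass without Control 2 or 3 or PHF12 knockdown 1 or 2 (adjusted p = 0.0869 to 0.291), and those libraries overlapped the controls.

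TIMP2 and TIMP3 rose with the PHF12 siRNA (0.40 and 0.39 on the log2 scale, adjusted p = 2.22e-05 and 5.92e-05), and stood at -0.00 and 0.04 with the SUDS3 siRNA, which did not pass. MMP15, a membrane-anchored protease, fell with the PHF12 siRNA (log2 fold change -0.48 with adjusted p = 0.00198). MMP14, which activates pro-MMP2, was near 1 TPM and did not pass with either.

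Of the collagen processing genes, the chaperone SERPINH1 had the largest fall with the SUDS3 siRNA and the cross-linking enzyme LOX the largest with the PHF12 siRNA. Of 5 tested, 1 rose and 4 fell with the PHF12 siRNA. With the SUDS3 siRNA edgeR called 4 lower and left 1 uncalled, with 0 higher also at an unadjusted p under 0.05 and in DESeq2. By comparison, 31.9% of all genes were called for PHF12 and 38.7% for SUDS3. SERPINH1, the collagen chaperone of the endoplasmic reticulum (ENSG00000149257, chromosome 11, 75562056 to 75572783), held 43.2, 50.4 and 47.1 CPM in SUDS3 knockdown libraries, 141, 144 and 135 CPM in PHF12 knockdown libraries and 124, 117 and 112 CPM in control libraries. The SUDS3 knockdown libraries lay far below both other groups (log2 fold change -1.33, SE of 0.05, adjusted p = 1.03e-21), and the PHF12 knockdown libraries lay above the controls (log2 fold change 0.25, SE of 0.05, adjusted p = 6.18e-05). A pseudogene, SERPINH1P1, is named after it, so some reads could be shared.

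The promoter window of SERPINH1 is shown because this gene had the largest fall with the SUDS3 siRNA among genes with ample counts (chr11:75562003-75562302, plus strand, RefSeq, GRCh38.p14). Capitals mark the single core of the heat shock element, GAANNTTC, which starts 71 bases before the RefSeq start. It was searched on both strands and is in 6.77% of the 35116 windows and in 5 of the 41 of these genes with one.
SERPINH1 promoter: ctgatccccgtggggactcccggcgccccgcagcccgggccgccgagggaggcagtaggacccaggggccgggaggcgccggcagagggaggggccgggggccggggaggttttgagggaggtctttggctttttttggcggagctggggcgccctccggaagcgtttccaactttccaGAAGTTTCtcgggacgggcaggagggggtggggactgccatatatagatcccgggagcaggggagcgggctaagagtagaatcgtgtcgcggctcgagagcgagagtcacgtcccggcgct
The match is a description of these letters, not evidence of binding.

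LOX, which cross-links collagen and elastin (ENSG00000113083, chromosome 5, 122063195 to 122078360), held 8.82, 7.59 and 6.67 CPM in PHF12 knockdown libraries, 10.8, 13.3 and 12.4 CPM in SUDS3 knockdown libraries and 20.2, 17.9 and 17.0 CPM in control libraries. Both knockdowns lay below the controls. The fall was larger with the PHF12 siRNA (log2 fold change -1.25, SE of 0.11, adjusted p = 2.34e-11) than with the SUDS3 siRNA (log2 fold change -0.59, SE of 0.11, adjusted p = 3.51e-05), and SUDS3 knockdown libraries were higher than PHF12 knockdown libraries (log2 fold change 0.66 with adjusted p = 8.69e-06). LOXL2, a related oxidase on chromosome 8, held 7.65, 6.41 and 7.32 CPM in PHF12 knockdown libraries, 11.8, 12.3 and 11.3 CPM in SUDS3 knockdown libraries and 12.2, 12.0 and 9.71 CPM in control libraries. It fell with the PHF12 siRNA (log2 fold change -0.67, SE of 0.12, adjusted p = 2.24e-05). PLOD2, the lysyl hydroxylase of collagen telopeptides, gave 98.7, 106 and 105 CPM in PHF12 knockdown libraries, 92.6, 92.8 and 95.0 CPM in SUDS3 knockdown libraries and 135, 141 and 127 CPM in control libraries. It fell with the PHF12 siRNA (log2 fold change -0.38, SE of 0.04, adjusted p = 7.35e-09) and also with that against SUDS3 (log2 fold change -0.52, SE of 0.04, adjusted p = 3.84e-12). P4HA1 gave 73.0, 77.5 and 77.2 CPM in PHF12 knockdown libraries, 82.1, 81.5 and 88.1 CPM in SUDS3 knockdown libraries and 93.0, 94.4 and 86.5 CPM in control libraries. This enzyme fell with the PHF12 siRNA (log2 fold change -0.27, SE of 0.05, adjusted p = 2.91e-05). Its smaller fall with the SUDS3 siRNA (log2 fold change -0.12 with adjusted p = 0.0401) did not pass without Control 1 or 2 or SUDS3 knockdown 1 or 2 (adjusted p = 0.119 to 0.22), nor with no low-count filter (adjusted p = 0.0621).

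**Figure D4:**
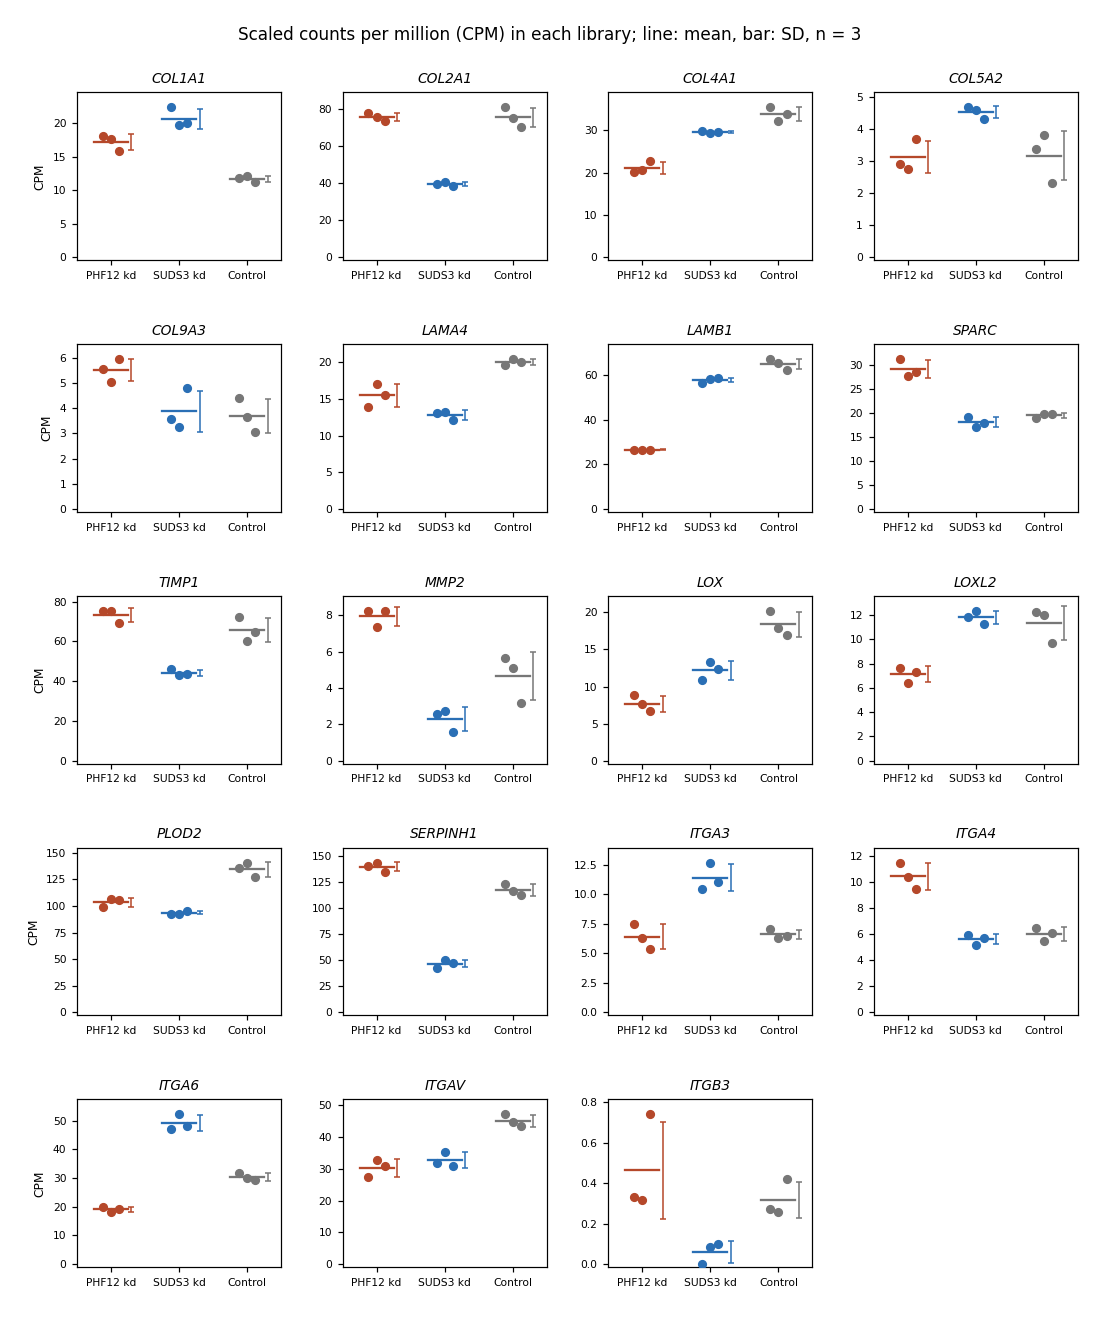
Level of the 19 genes with a call, a change of at least 0.5 on the log2 scale and no overlap with the controls in either knockdown, in CPM on linear axes that include 0 for each gene. Points are libraries, the horizontal line is the mean and the bar beside it the SD (n = 3), with PHF12 and SUDS3 knockdown (kd) left of control. LAMB1 and LOX are lowest with the PHF12 siRNA, SERPINH1, COL2A1 and TIMP1 are lowest with the SUDS3 siRNA, and MMP2 and ITGA6 differ from control in opposite directions.

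Integrin alpha chains moved chain by chain. Of 7, 1 rose, 2 fell and 4 did not pass with the PHF12 siRNA, and 3 rose, 1 fell and 3 did not pass with the SUDS3 siRNA. Among all genes the called shares were 31.9% and 38.7%. ITGA6, a laminin receptor chain (ENSG00000091409, chromosome 2, 172427354 to 172506282), held 47.1, 52.1 and 48.2 CPM in SUDS3 knockdown libraries, 19.8, 18.0 and 19.4 CPM in PHF12 knockdown libraries and 31.9, 29.8 and 29.2 CPM in control libraries. The 3 groups were fully apart. It rose with the SUDS3 siRNA (log2 fold change 0.70, SE of 0.07, adjusted p = 1.50e-10) and fell with the PHF12 siRNA (log2 fold change -0.67, SE of 0.07, adjusted p = 9.00e-10). Its share of the 7 alpha chains per length was 33.6 ± 0.594% in SUDS3 knockdown libraries, 18.2 ± 0.726% in PHF12 knockdown libraries and 24.3 ± 0.203% in control libraries. ITGA3, another laminin receptor chain, held 10.5, 12.7 and 11.1 CPM in SUDS3 knockdown libraries, 7.49, 6.33 and 5.37 CPM in PHF12 knockdown libraries and 7.04, 6.31 and 6.44 CPM in control libraries. SUDS3 knockdown libraries lay above all others (log2 fold change 0.79, SE of 0.13, adjusted p = 7.57e-06).

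ITGA4, a chain that binds fibronectin and VCAM1, held 11.5, 10.4 and 9.45 CPM in PHF12 knockdown libraries, 5.96, 5.17 and 5.69 CPM in SUDS3 knockdown libraries and 6.49, 5.45 and 6.12 CPM in control libraries. Its PHF12 knockdown libraries lay above all others, and it rose with the PHF12 siRNA (log2 fold change 0.79, SE of 0.13, adjusted p = 8.37e-06). ITGAV, which pairs with several beta chains and binds RGD sites, held 27.4, 32.8 and 30.9 CPM in PHF12 knockdown libraries, 32.0, 35.5 and 30.8 CPM in SUDS3 knockdown libraries and 47.2, 44.8 and 43.5 CPM in control libraries. Both knockdowns lay below the controls, with a fall with the PHF12 siRNA (log2 fold change -0.57, SE of 0.07, adjusted p = 2.80e-08) and also with that against SUDS3 (log2 fold change -0.46, SE of 0.07, adjusted p = 1.45e-06). ITGA5, the classical fibronectin receptor chain and the highest alpha chain per length over the 9 libraries, held 51.4 ± 2.12 CPM in SUDS3 knockdown libraries, 39.8 ± 1.70 CPM in PHF12 knockdown libraries and 39.3 ± 2.12 CPM in control libraries (SD, n = 3 each). It rose with the SUDS3 siRNA (log2 fold change 0.39, SE of 0.06, adjusted p = 2.72e-06). The collagen receptor chains ITGA1 and ITGA2 did not pass with either siRNA.

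Among the beta chains, ITGB1, the partner of most of these alpha chains, gave 85.8, 92.2 and 87.9 CPM in PHF12 knockdown libraries, 92.4, 101 and 101 CPM in SUDS3 knockdown libraries and 95.1, 94.1 and 98.9 CPM in control libraries. It did not pass with the PHF12 siRNA (log2 fold change -0.11 with adjusted p = 0.0524) or with the SUDS3 siRNA (log2 fold change 0.03 with adjusted p = 0.681). ITGB5, a partner of ITGAV, fell with the PHF12 siRNA (log2 fold change -0.31 with adjusted p = 0.011) and also with that against SUDS3 (log2 fold change -0.25 with adjusted p = 0.0323). The PHF12 call did not pass without Control 1 or PHF12 knockdown 2 or 3 (adjusted p = 0.0596 to 0.151), and the SUDS3 call did not pass without Control 1 or SUDS3 knockdown 1 (adjusted p = 0.15 to 0.3). ITGB3, another partner of ITGAV, had 0, 4 and 4 counts in SUDS3 knockdown libraries, 16, 16 and 32 in PHF12 knockdown libraries and 12, 12 and 16 in control libraries. Since most counts are multiples of 4, these stand for a handful of fragments, and the SUDS3 call (adjusted p = 0.0428) did not pass without Control 1, 2 or 3, PHF12 knockdown 1, 2 or 3 or SUDS3 knockdown 1, 2 or 3 (adjusted p = 0.0545 to 0.173) or with no low-count filter (adjusted p = 0.0662). ITGB8, which averaged under 1 TPM, did not pass against control (log2 fold change 0.63 for PHF12 and -0.94 for SUDS3, adjusted p = 0.217 and 0.0618). Its PHF12 knockdown libraries lay above all control libraries and its SUDS3 knockdown libraries below them. ITGB8 was lower in SUDS3 than in PHF12 knockdown libraries (log2 fold change -1.57 with edgeR adjusted p = 0.00111). Of the 4 beta chains 0 rose with either siRNA in edgeR, at an unadjusted p under 0.05 or in DESeq2, and 1 fell with the PHF12 siRNA and 2 with that against SUDS3, where 17.1% and 19.2% of all genes fell.

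The direct comparison of SUDS3 with PHF12 knockdown libraries sets them against each other and not against the controls, with 1 estimate of spread over all 9 libraries. Of the 52 genes, 19 were higher, 20 lower and 13 not called, or 75.0%, against 43.9% of all genes tested, of which 22.7% were higher and 21.1% lower. Among genes with an average log2 CPM of at least 1, 78.7% of 47 were called against 58.0% of 12728. With upper-quartile scaling 14 were higher and 21 lower, and over all genes the share of calls that were higher was 41.2% in place of 51.8%. All 3 SUDS3 knockdown libraries lay above all 3 PHF12 knockdown libraries in 20 genes and below them in 21, where 26.3% and 25.5% of all genes did so. The largest higher calls were ITGA6 (log2 fold change 1.37, SE of 0.07, adjusted p = 1.86e-18) and LAMB1 (log2 fold change 1.12, SE of 0.06, adjusted p = 1.17e-18). ITGA3 (log2 fold change 0.83, SE of 0.13, adjusted p = 1.81e-06) and AGRN (log2 fold change 0.80, SE of 0.07, adjusted p = 5.61e-12) followed. The largest lower calls with ample counts were MMP2 (log2 fold change -1.78, SE of 0.20, adjusted p = 1.55e-09), SERPINH1 (log2 fold change -1.58, SE of 0.05, adjusted p = 2.29e-24), COL2A1 (log2 fold change -0.94, SE of 0.05, adjusted p = 6.69e-17) and ITGA4 (log2 fold change -0.90, SE of 0.13, adjusted p = 5.51e-07). By class, 4 of 6 proteases and inhibitors were lower with the SUDS3 siRNA than with the PHF12 siRNA and 1 was higher. Among 5 glycoproteins, 3 were lower and 1 higher. The 5 collagen processing genes were split, with 3 higher and 2 lower, SERPINH1 and PLOD2. The higher call of P4HA1 did not pass without PHF12 knockdown 1 or SUDS3 knockdown 3 (adjusted p = 0.078 to 0.118) or with upper-quartile scaling (adjusted p = 0.202). TIMP1, TIMP2, TIMP3, SPARC, FBLN1 and FN1 were all lower in SUDS3 than in PHF12 knockdown libraries, at -0.73, -0.40, -0.35, -0.69, -0.56 and -0.43 on the log2 scale.

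Short sites in 3' UTRs bear on how an siRNA can lower transcripts other than its target. Earlier work on these same fold changes picked the hexamer AATCAC for the PHF12 siRNA and TACATT for the SUDS3 siRNA, so the shares below describe the data and test nothing. Of all tested protein-coding genes with an annotated 3' UTR, AATCAC was in 57.0% of those that fell with the PHF12 siRNA. It was in 20.8% of those that rose and 28.3% of those not called. These groups differed in median 3' UTR length, at 2093 bases for those that fell, 1611 for those that rose and 1494 for those not called. Among the matrix genes AATCAC was in 7 of 16 that fell, 3 of 12 that rose and 9 of 24 not called. TACATT was in 56.3% of all such genes that fell with the SUDS3 siRNA, 34.8% of those that rose and 39.7% of those not called. Among matrix genes it was in 9 of 19, 3 of 10 and 10 of 23. Median 3' UTR lengths over all such genes were 1920, 1734 and 1471.5 bases in the same order. The shares were not adjusted for this length. The windows around the first site are shown for LAMB1 and LOX, the largest falls with the PHF12 siRNA, and for MMP2 with the SUDS3 siRNA, read 5′ to 3′ from GENCODE 29 transcripts with the hexamer in capitals (chr7:107923829-107923858, minus strand; chr5:122065795-122065824, minus strand; chr16:55505922-55505951, plus strand; GRCh38).
LAMB1: tttaatgtttttAATCACattttgtatgga
LOX: tgctgacataaaAATCACacaaacaagtcc
MMP2: tagaacctttctTACATTagcagtttgctt
SERPINH1 and COL2A1, which fell with the SUDS3 siRNA, held no TACATT in the 3' UTR used here, and LOXL2 and COL4A1, which fell with the PHF12 siRNA, held no AATCAC. The part of such sites in these falls was not tested.

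Other genes of the same pathways were read from lists of further matrix and adhesion genes. Of 32 further collagen, laminin and integrin chains, 10 fell, 0 rose and 22 did not pass with the SUDS3 siRNA in edgeR. At an unadjusted p under 0.05, 14 fell and 0 rose, and in DESeq2 13 fell and 0 rose. With the PHF12 siRNA 3 rose, 5 fell and 24 did not pass. Across all genes, edgeR called 19.2% lower and 19.6% higher for SUDS3, and 17.1% lower and 14.8% higher for PHF12. COL26A1 averaged 2.03 ± 0.0515 CPM in PHF12 knockdown libraries and 6.16 ± 0.937 CPM in control libraries (SD, n = 3 each; log2 fold change -1.60, edgeR adjusted p = 1.95e-08). ITGA8, a kidney mesenchyme integrin chain, averaged 8.79 ± 0.273 CPM in PHF12 knockdown libraries and 17.8 ± 0.879 CPM in control libraries (SD, n = 3 each; log2 fold change -1.02, edgeR adjusted p = 1.25e-09), and fell with the SUDS3 siRNA too (log2 fold change -0.76).

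Of 27 further collagen modifying and folding enzymes, 2 rose and 8 fell with the PHF12 siRNA, and 3 rose and 9 fell with the SUDS3 siRNA. Of all genes, 14.8% rose and 17.1% fell with the PHF12 siRNA, and 19.6% rose and 19.2% fell with the SUDS3 siRNA. LOXL3, another lysyl oxidase, averaged 25.6 ± 3.77 CPM in PHF12 knockdown libraries and 12.6 ± 0.837 CPM in control libraries (SD, n = 3 each; log2 fold change 1.02, edgeR adjusted p = 2.52e-10), opposite to LOX and LOXL2. COLGALT1, which adds galactose to collagen, averaged 58.4 ± 0.950 CPM in PHF12 knockdown libraries and 115 ± 4.77 CPM in control libraries (SD, n = 3 each; log2 fold change -0.98, edgeR adjusted p = 6.38e-20). P3H1, a prolyl hydroxylase, averaged 83.9 ± 0.879 CPM in SUDS3 knockdown libraries and 58.3 ± 2.81 CPM in control libraries (SD, n = 3 each; log2 fold change 0.52, edgeR adjusted p = 1.13e-10). Of 21 further proteases and inhibitors, 2 rose and 6 fell with the PHF12 siRNA, and 5 rose and 4 fell with the SUDS3 siRNA. The called shares of all genes were 31.9% for PHF12 and 38.7% for SUDS3. ADAMTS1, a proteoglycan-cutting protease, averaged 99.3 ± 0.679 CPM in PHF12 knockdown libraries and 183 ± 4.82 CPM in control libraries (SD, n = 3 each; log2 fold change -0.88, edgeR adjusted p = 1.52e-20). PLAT, tissue plasminogen activator, averaged 27.4 ± 1.53 CPM in SUDS3 knockdown libraries and 47.7 ± 1.85 CPM in control libraries (SD, n = 3 each; log2 fold change -0.80, edgeR adjusted p = 9.98e-14).

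Of 45 further glycoproteins and proteoglycans, 7 rose and 9 fell with the PHF12 siRNA, and 3 rose and 16 fell with the SUDS3 siRNA. Over all genes, 31.9% were called for PHF12 and 38.7% for SUDS3. CCN1 and CCN2 of this list stand in GENCODE 29 under older symbols. The falls with the SUDS3 siRNA include the anti-adhesive tenascin gene TNC (log2 fold change -0.78) and EMILIN3 (-0.74). Of 37 further adhesion genes, mostly adaptors and kinases linked to integrins, 8 rose and 9 fell with the PHF12 siRNA. With the SUDS3 siRNA 18 rose and 8 fell, with a median log2 fold change of 0.15, against -0.02 over all genes. Of all genes, 14.8% rose and 17.1% fell for PHF12, and 19.6% rose and 19.2% fell for SUDS3. This list also holds membrane proteins such as DAG1, BCAM, CD151, CD9 and CD47. VCL, which encodes the focal adhesion protein vinculin, averaged 97.1 ± 4.73 CPM in PHF12 knockdown libraries and 164 ± 1.84 CPM in control libraries (SD, n = 3 each; log2 fold change -0.75, edgeR adjusted p = 3.36e-18). VASP, which promotes actin filament growth, averaged 52.0 ± 0.802 CPM in SUDS3 knockdown libraries and 35.8 ± 3.21 CPM in control libraries (SD, n = 3 each; log2 fold change 0.54, edgeR adjusted p = 2.09e-08). SRC, an adhesion kinase, fell with the SUDS3 siRNA (log2 fold change -0.47).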

How the data were processed

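RNA-seq libraries of HEK293T cells, 3 per group, were grouped by their titles. Per the labels' protocols, an Illumina TruSeq kit gave stranded poly-A libraries. Per the submitters' processing notes, the tools were Trimmomatic 0.36, HISAT2 2.1.0 and HTSeq with build GRCh38, and no source used here gives the strand setting. The authors deposited whole-number counts for 58735 genes and TPM that sum to 1000000 per library. Of counts above 0, 96.1% are multiples of 4 (25.0% by chance), so 1 fragment appears to be worth 4 counts. The deposited TPM did not follow gene length: the length implied by count over TPM was unrelated to exon length across 10673 genes with at least 200 counts in each library (Spearman rho 0.0059, across genes, a description). TPM was therefore recomputed from counts and GENCODE 29 exon length, in place of the planned use of the deposited TPM. LAMC1, for example, has a mean deposited TPM of 1082 and a recomputed one of 109.

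The fit used edgeR 4.0.16 (R 4.3.3) with filterByExpr at a minimum count of 10, TMM scaling, 1 mean per group and quasi-likelihood F-tests of 3 contrasts, adjusted by Benjamini-Hochberg over 18088 genes within each contrast. The fit was also run on simulated counts. These lacked the multiples of 4 and had far fewer changed genes than the real data, so that run does not check this setting. Libraries of a group differed by more than counting error (chi-square per degree of freedom 1.38 to 2.21, counts divided by 4). Intervals from counts would cover counting error only. Genes get full values if they had a call, an absolute log2 fold change of at least 0.5 and no overlap with the controls, or the highest level per length of their class. COL4A2, LAMB2 and AGRN did not meet this rule but are also given by library, as are the counts of COL6A3. From each further list up to 3 genes with the largest change were eligible, and some of these are described. The genes, the lists and the sites searched for were chosen with earlier results of these data known. Alternatives were upper-quartile scaling, DESeq2 1.42.0, other filters, counts divided by 4, only the 2 groups compared, a replicate block, each library left out, and another gene length, which was added after the data were seen.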

Additional observations from a re-analysis of the deposited data

How the results depend on the processing

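Of the calls among the 52 tested genes, 23 of 28 for PHF12, 21 of 29 for SUDS3 and 29 of 39 between the knockdowns were kept in every alternative run, and no called value changed sign. Falls with the SUDS3 siRNA numbered 12 without Control replicate 1, against 19 with all libraries; no other count of calls moved by over 1.5 times. With each library left out in turn, PHF12 calls numbered 9 to 12 higher, 14 to 16 lower and 24 to 28 in all; SUDS3 calls 9 to 10, 12 to 18 and 21 to 27; and calls between the knockdowns 14 to 19, 18 to 20 and 33 to 39. DESeq2 gave 13 higher and 17 lower, 11 and 20, and 19 and 21. Counts divided by 4 gave 13 and 16, 10 and 17, and 19 and 19. With SUDS3 against control and upper-quartile scaling, 9 were higher and 20 lower. With the longest coding transcript as gene length, 47 genes still averaged at least 1 TPM.

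Libraries share a replicate number across groups, but their deviations were not correlated by number (r of -0.016 to 0.030 over 9 pairs, where every pair over 0.1 was required). The numbers were therefore not used as pairs in the main fit. This check cannot show whether libraries of the same number were prepared together. With a replicate block, 12 genes were higher and 17 lower for PHF12, 10 and 18 for SUDS3, and 19 and 20 between the knockdowns. Low counts limit COL6A3, ITGB3 and the 3 genes not tested.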
